A study of Mus musculus with 12 samples.

Results

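Cell cycle and DNA replication genes were examined in the RNA-Seq data of bone marrow-derived macrophages (BMMs). The 48 genes were chosen by name for their known roles from 38887 genes in the files. Earlier results of these data were known, but no threshold was set on the values of these genes. They were divided by role into 11 G1/S cyclins, kinases and E2F factors, 16 genes of replication licensing, DNA synthesis and nucleotide supply, 18 genes of G2 and mitosis including the common proliferation markers, and 3 inhibitors of cyclin-dependent kinases (CDKs). BMMs were prepared from mice aged 3 to 4 months, of which 3 were WT and 3 IGF2BP2 KO, and gave 12 libraries. All cells were grown for 6 days with 50 ng/ml M-CSF, the growth factor that drives macrophage precursors to divide and mature. They then either stayed untreated (M0) or received IL-4 at 20 ng/ml during 8 h (M2), so that each group had 3 libraries, numbered 1 to 3. In the KO animals loxP sites flanked exons 4 and 5 of Igf2bp2, and Cre came from the Lyz2 (LysM) locus, which is active in the myeloid lineage and not in macrophages alone. WT animals were littermates without the floxed allele, with or without Cre, and the labels do not give which of them carried it.

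A cell that enters division first makes D-type cyclins, which activate CDK4 and CDK6 and thereby release E2F transcription factors from retinoblastoma proteins. E2F factors then switch on cyclin E and the genes that license and copy DNA, among them the MCM helicase, CDC6, CDT1, PCNA and the enzymes that supply nucleotides. The mitotic genes follow later in the cycle, driven by B-MYB and FOXM1, and the inhibitors p21, p27 and p18 restrain the CDKs. M-CSF is the mitogen of cultured macrophages, and IL-4 is known to slow the growth that it drives.

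Igf2bp2, the deleted gene, had 76.5 to 118 CPM (WT) and 84.9 to 95.9 CPM (KO) in M0, and 178 to 233 CPM (WT) and 129 to 146 CPM (KO) in M2, where CPM is the count of a gene relative to the TMM-scaled total of its library. These are counts of the whole gene, and reads from the remaining exons are part of them, so that they do not check the deletion. Lyz2, whose locus carries Cre, had 4185 to 10544 CPM in the WT and 11.0 to 33.2 CPM in the KO libraries, so that loss of IGF2BP2 and loss of Lyz2 RNA cannot be told apart as sources of a genotype difference. Library totals lay between 20011771 and 39632751 counts, and every KO M2 library was deeper than every WT M2 library. The 6 macrophage markers summed to 4327 to 5625 CPM in every library, while the markers of erythroid cells, lymphocytes, mast cells and basophils summed to at most 0.166 CPM. The stromal markers, led by Col1a1 and Col1a2, summed to 29.5 to 53.1 CPM (WT) and 7.91 to 29.8 CPM (KO) in M0, and to 32.5 to 59.5 CPM (WT) and 8.94 to 26.2 CPM (KO) in M2. The 6 neutrophil markers, of which Ly6g was at 0, summed to 9.19 to 24.1 CPM (WT) and 5.81 to 6.13 CPM (KO) in M0, and to 5.01 to 14.0 CPM (WT) and 5.20 to 6.39 CPM (KO) in M2. The part of these cells in the genotype differences was not tested.

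All 48 genes were expressed, and all passed the filter on low counts, with at least 269 counts in every library. Per length of transcript, in TPM, the most abundant member in WT M0 was Pcna, the sliding clamp of DNA polymerase, with 1337 ± 151 TPM (mean ± SD, n = 3). It was followed by Ccnd1 (cyclin D1) with 518 ± 25.3 TPM, Cdkn1a (p21) with 452 TPM and Cdk4 with 387 TPM. The least abundant was Ccnd2 with 13.5 TPM. In the other groups Pcna was again first, and Cdkn1a passed Ccnd1 in both M2 groups, with 701 TPM in WT and 742 TPM in KO. The annotation lists pseudogenes named after Pcna, Ccnd3, Ccnb1 and Ccnb2, among which reads may be divided. Their counts came to at most 0.207% of those of the gene itself.

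**Figure D1:**
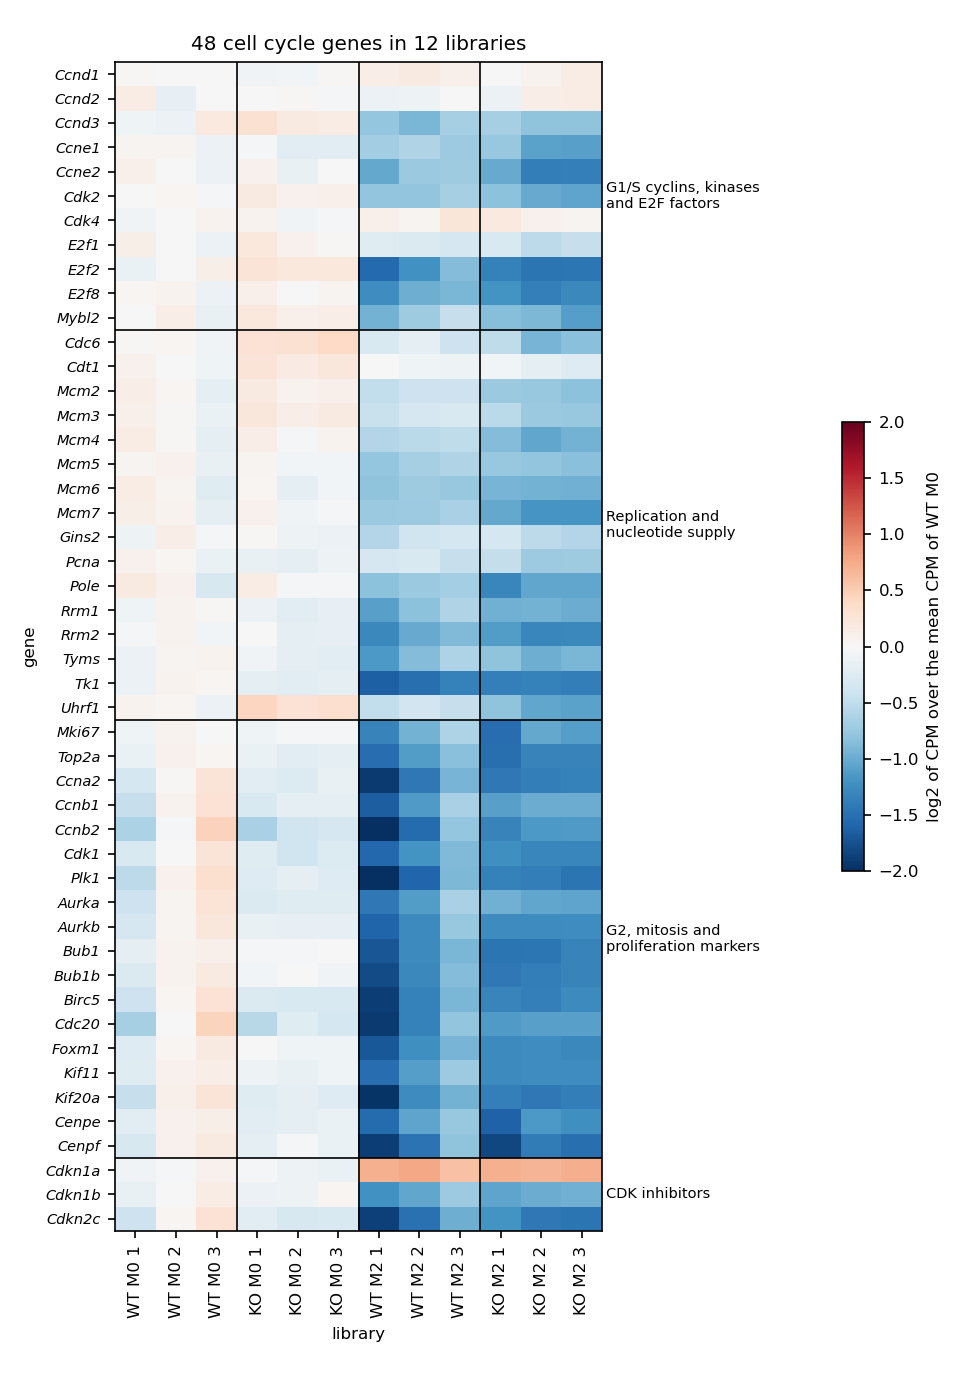
Level of the 48 genes (rows, by role) in the 12 libraries (columns, by group and library number), as the log2 of the CPM over the mean CPM of the 3 WT M0 libraries. Nearly all rows are blue in both M2 groups, the row of Cdkn1a is red there, and in the mitosis rows WT library 1 is lower than WT library 3 in M0 and in M2.

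Motifs of cell cycle promoters were then counted. RefSeq windows (GRCm38.p6, 250 bases before to 50 after the start of transcription) were found for 38 of the 48 genes, 6 of them with more than 1 window. The windows were searched on both strands for the CHR element of late cell cycle promoters (TTTGAA or TTCGAA), the CCAAT box (CCAAT), and the E2F site (TTTCCCGC, TTTGGCGC, TTTGCCGC or TTTCGCGC). CHR letters were present in 11 of 14 mitotic genes, 2 of 13 replication genes, 2 of 8 G1/S genes and 0 of 3 CDK inhibitors, against 21.7% of all 27025 genes with a window and 16.6% of the 9691 that were expressed here. E2F letters were present in 7 of 13 replication genes, 2 of 8 G1/S genes, 1 of 14 mitotic genes and 0 of 3 CDK inhibitors. The shares were 2.6% of all genes and 4.76% of the expressed ones. The CCAAT box stood in 13 of 14 mitotic genes, 9 of 13 replication genes, 4 of 8 G1/S genes and 2 of 3 CDK inhibitors. It also stood in 41.1% of all and 43.3% of the expressed genes. Only in 1 window, of Mcm7, did letters of different motifs overlap. These are matches of letters, and binding was not measured.

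The 200 bases before the start of transcription are shown for 3 replication genes that differed between the genotypes (Cdc6 at chr11:98907951-98908150, plus strand, Uhrf1 at chr17:56304113-56304312, plus strand, and Mcm7 at chr5:138171884-138172083, minus strand) and for 3 mitotic genes (Ccnb2 at chr9:70421555-70421754, Cdc20 at chr4:118437344-118437543 and Cdk1 at chr10:69352913-69353112, all on the minus strand). They are written 5′ to 3′ on the strand of the gene, and capitals mark the letters of the CHR, CCAAT and E2F motifs. The replication promoters shown each hold 1 E2F match. Uhrf1 and Mcm7 have a further window each, which is not shown and holds 0 E2F matches. Of the other replication genes called between the genotypes, Mcm2 holds 0 E2F matches and Mcm4 has no window. Those of Mcm3 and Cdt1 lie after the start of transcription. The mitotic promoters shown hold CCAAT boxes followed or preceded by CHR letters, and Cdk1 holds an E2F match as well. CCAAT boxes also stand in the stretches of Uhrf1 and Mcm7, and CHR letters in that of Mcm7. After the start, outside the stretches, the window of Ccnb2 holds further CHR letters and that of Mcm7 a further E2F match.
Cdc6: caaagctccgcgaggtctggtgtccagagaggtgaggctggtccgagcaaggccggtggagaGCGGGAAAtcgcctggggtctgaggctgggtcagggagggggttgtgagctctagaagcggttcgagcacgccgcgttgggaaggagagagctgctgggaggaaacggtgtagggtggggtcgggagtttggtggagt
Uhrf1: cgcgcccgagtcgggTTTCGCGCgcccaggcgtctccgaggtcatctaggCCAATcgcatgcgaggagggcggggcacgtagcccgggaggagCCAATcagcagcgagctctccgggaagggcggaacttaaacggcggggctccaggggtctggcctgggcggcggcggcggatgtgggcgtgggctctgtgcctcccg
Mcm7: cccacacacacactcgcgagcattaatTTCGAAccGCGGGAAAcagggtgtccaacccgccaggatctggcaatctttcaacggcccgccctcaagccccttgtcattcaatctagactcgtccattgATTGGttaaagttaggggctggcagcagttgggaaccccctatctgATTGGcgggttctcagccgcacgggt
Ccnb2: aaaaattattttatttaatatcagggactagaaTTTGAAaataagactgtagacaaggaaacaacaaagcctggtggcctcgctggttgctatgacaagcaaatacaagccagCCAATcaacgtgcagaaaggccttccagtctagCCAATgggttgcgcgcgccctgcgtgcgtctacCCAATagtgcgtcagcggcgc
Cdc20: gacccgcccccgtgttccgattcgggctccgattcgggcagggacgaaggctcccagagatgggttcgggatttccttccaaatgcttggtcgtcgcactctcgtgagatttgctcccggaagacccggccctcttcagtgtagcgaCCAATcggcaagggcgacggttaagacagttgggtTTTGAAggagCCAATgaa
Cdk1: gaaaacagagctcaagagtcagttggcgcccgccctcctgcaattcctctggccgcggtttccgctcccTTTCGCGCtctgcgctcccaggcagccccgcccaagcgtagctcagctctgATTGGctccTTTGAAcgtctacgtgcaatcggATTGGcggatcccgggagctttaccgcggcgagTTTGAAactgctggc

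To see how IL-4 changed the cell cycle genes, M2 was compared with M0 within each genotype. In WT macrophages 43 of the 48 genes fell with IL-4 and 2 rose, and in KO macrophages 44 fell and 1 rose, by the quasi-likelihood test of edgeR at an adjusted p under 0.05. Over all 12846 genes tested, 25.1% fell and 24.9% rose in WT, and 26% fell and 26.8% rose in KO. The median log2 fold change of the 48 genes was -0.90 in WT and -1.05 in KO, while that of all genes was -0.01 and 0.01. The M2 and M0 libraries did not overlap, with M2 lower, for 43 members in WT and 44 in KO, against 27.3% and 31.3% of all genes, and did not overlap with M2 higher for 2 members in WT and 1 in KO, against 27.9% and 32.1% of all genes. In bulk RNA, fewer dividing cells and less of these RNAs per cell cannot be told apart.

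The mitotic genes fell as a whole. All 18 fell in both genotypes, with a median log2 fold change of -1.26 in WT and -1.15 in KO. Mki67, which encodes the proliferation antigen Ki-67, was at 536, 596 and 569 CPM in WT M0 and at 224, 293 and 372 CPM in WT M2. In KO it was at 536, 556 and 559 CPM (M0) and at 197, 278 and 265 CPM (M2). The treated libraries lay below every untreated library in both genotypes, and the log2 fold change was -0.94 in WT (SE 0.15, edgeR adjusted p = 0.000243) and -1.16 in KO (SE 0.15, edgeR adjusted p = 3.82e-05). Top2a, the topoisomerase that untangles replicated chromosomes, was at 592, 691 and 669 CPM in WT M0 and went to 227, 299 and 365 CPM in WT M2. In KO its values were 594, 556 and 571 CPM in M0 and 228, 259 and 258 CPM in M2. Treated and untreated libraries again did not overlap, and the log2 fold changes were -1.13 in WT and -1.21 in KO (SE 0.13 in each).

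The kinases and cyclins of mitotic entry fell too. Cdk1, the mitotic kinase, went from 116, 142 and 171 CPM to 48.2, 62.8 and 77.6 CPM in WT, and from 121, 109 and 118 CPM to 60.9, 58.0 and 58.2 CPM in KO. Cdk1 had log2 fold changes of -1.19 in WT and -0.97 in KO (SE 0.15 in each, edgeR adjusted p = 3.23e-05 and 0.000134). Its cyclins Ccna2 (-1.37 and -1.17), Ccnb1 (-1.08 and -0.80) and Ccnb2 (-1.38 and -0.75) fell in both genotypes on the log2 scale. Plk1, a kinase of spindle and chromosome separation, fell by 1.45 in WT and 1.16 in KO on the log2 scale, and the Aurora kinases Aurka and Aurkb fell by 1.03 and 1.17 in WT and by 0.76 and 1.10 in KO. Bub1 and Bub1b of the spindle checkpoint, the motors Kif11 and Kif20a, the kinetochore proteins Cenpe and Cenpf, the survivin gene Birc5 and the transcription factor Foxm1 had log2 fold changes between -1.44 and -1.02. Cdc20, the activator of the anaphase-promoting complex, fell from 36.0, 57.0 and 77.7 to 15.1, 22.4 and 33.1 CPM in WT and from 38.9, 47.9 and 44.6 to 25.9, 26.9 and 26.7 CPM in KO. In KO the calls of Cdc20 (edgeR adjusted p = 0.031) and Ccnb2 (edgeR adjusted p = 0.0415) were lost in 5 and in 6 of the 6 fits that left out 1 KO library, with log2 fold changes between -0.84 and -0.65 in these fits. DESeq2 with all libraries did not call Ccnb2 in KO.

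Genes of DNA replication fell less evenly. In WT 15 of the 16 fell and in KO all 16, with median log2 fold changes of -0.61 and -0.89. Those of nucleotide supply changed most in WT. Tk1, the thymidine kinase of dividing cells, was at 114, 131 and 127 CPM in WT M0 and at 40.1, 43.8 and 48.7 CPM in WT M2. In KO its levels were 109, 107 and 109 CPM in M0 and 48.4, 48.7 and 47.9 CPM in M2. Every M2 library lay far below every M0 library of its genotype, and Tk1 fell by 1.49 on the log2 scale in WT (SE 0.07, edgeR adjusted p = 2.2e-09) and by 1.17 in KO (SE 0.07, edgeR adjusted p = 1.61e-08). Rrm2 and Rrm1, the subunits of ribonucleotide reductase, fell by 1.05 and 0.82 in WT and by 1.11 and 0.81 in KO, and Tyms, the thymidylate synthase, by 0.87 in WT and 0.74 in KO, all on the log2 scale.

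The licensing factors and the helicase genes varied among themselves. Cdt1, which loads the helicase onto origins, was at 97.1, 91.5 and 87.0 CPM in WT M0 and at 92.1, 86.2 and 86.0 CPM in WT M2, with overlapping groups and a log2 difference of -0.06 (SE 0.06, edgeR adjusted p = 0.428). In KO Cdt1 went from 109.5, 103 and 107 CPM to 88.1, 81.3 and 76.8 CPM and fell by 0.38 on the log2 scale (SE 0.06, edgeR adjusted p = 0.000136). Pcna fell by 0.37 in WT and 0.49 in KO, and Gins2, a part of the active helicase, by 0.44 and 0.42. The 6 MCM genes fell by 0.36 (Mcm3) to 0.76 (Mcm6) in WT and by 0.78 (Mcm5) to 1.12 (Mcm7) in KO.

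At the G1/S step the response was divided. Ccnd1, cyclin D1, had 1063, 1035 and 1039 CPM in WT M0 and 1145, 1183 and 1127 CPM in WT M2, and 991, 1009 and 1059.9 CPM in KO M0 against 1037, 1103 and 1156 CPM in KO M2. It rose in WT by 0.14 on the log2 scale (SE 0.05, edgeR adjusted p = 0.0265), and 4 of the 6 fits without 1 WT library did not call it (without WT M0 2 or 3, or WT M2 1 or 2). Nor was it called with no filter on low counts, with only the WT libraries in the fit or with limma on log2 TPM at either pseudocount. In KO the groups overlapped, and the log2 difference of Ccnd1, 0.11 (SE 0.05, edgeR adjusted p = 0.0732) did not pass the test. With library pairs of the same number as a block in the fit, Ccnd1 and its partner Cdk4 were called higher with IL-4 in both genotypes. Cdk4 was otherwise at log2 differences of 0.13 and 0.12 (edgeR adjusted p = 0.0991 and 0.116), and Ccnd2 at -0.07 and 0.06. The other 8 genes of this step fell in both genotypes. Among them Ccnd3 (-0.78 and -0.97), cyclin E genes Ccne1 (-0.67 and -0.81) and Ccne2 (-0.82 and -1.23) and their kinase gene Cdk2 (-0.75 and -1.08) are given as log2 fold changes in WT and KO.

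Of the 3 E2F genes among the 48, E2f2 changed most. It went from 50.8, 55.3 and 60.5 CPM to 18.9, 24.0 and 30.5 CPM in WT and from 66.7, 64.5 and 64.1 CPM to 21.7, 20.2 and 20.3 CPM in KO. Without overlap in either genotype, its log2 fold change was -1.18 in WT (SE 0.12, edgeR adjusted p = 5.19e-06) and -1.65 in KO (SE 0.12, edgeR adjusted p = 1.7e-07), the largest of the 48 genes in KO. E2f8, a repressor of the late S phase, fell by 1.05 and 1.34, Mybl2 (B-MYB) by 0.70 and 1.10, and E2f1 by 0.29 and 0.54 on the log2 scale.

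The 3 CDK inhibitors moved in opposite directions. Cdkn1a, which encodes p21, rose from 388, 404 and 433 CPM in WT M0 to 669, 697 and 611 CPM in WT M2, and from 401, 383 and 373 CPM in KO M0 to 672, 657 and 673 CPM in KO M2. All treated libraries lay above all untreated ones. The log2 fold change was 0.69 in WT (SE 0.06, edgeR adjusted p = 5.04e-07) and 0.79 in KO (SE 0.06, edgeR adjusted p = 1.26e-07), or 1.61-fold and 1.73-fold. Cdkn1b (p27) went from 25.7, 28.1 and 31.3 CPM to 12.3, 13.9 and 17.1 CPM in WT and from 26.2, 26.5 and 29.0 CPM to 13.7, 14.3 and 14.5 CPM in KO, so that it fell by 0.98 and 0.94 on the log2 scale. Cdkn2c (p18) fell by 1.40 in WT and 1.07 in KO on the log2 scale. Thus p21 was the only member that rose in both genotypes under edgeR without the block.

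**Figure D2:**
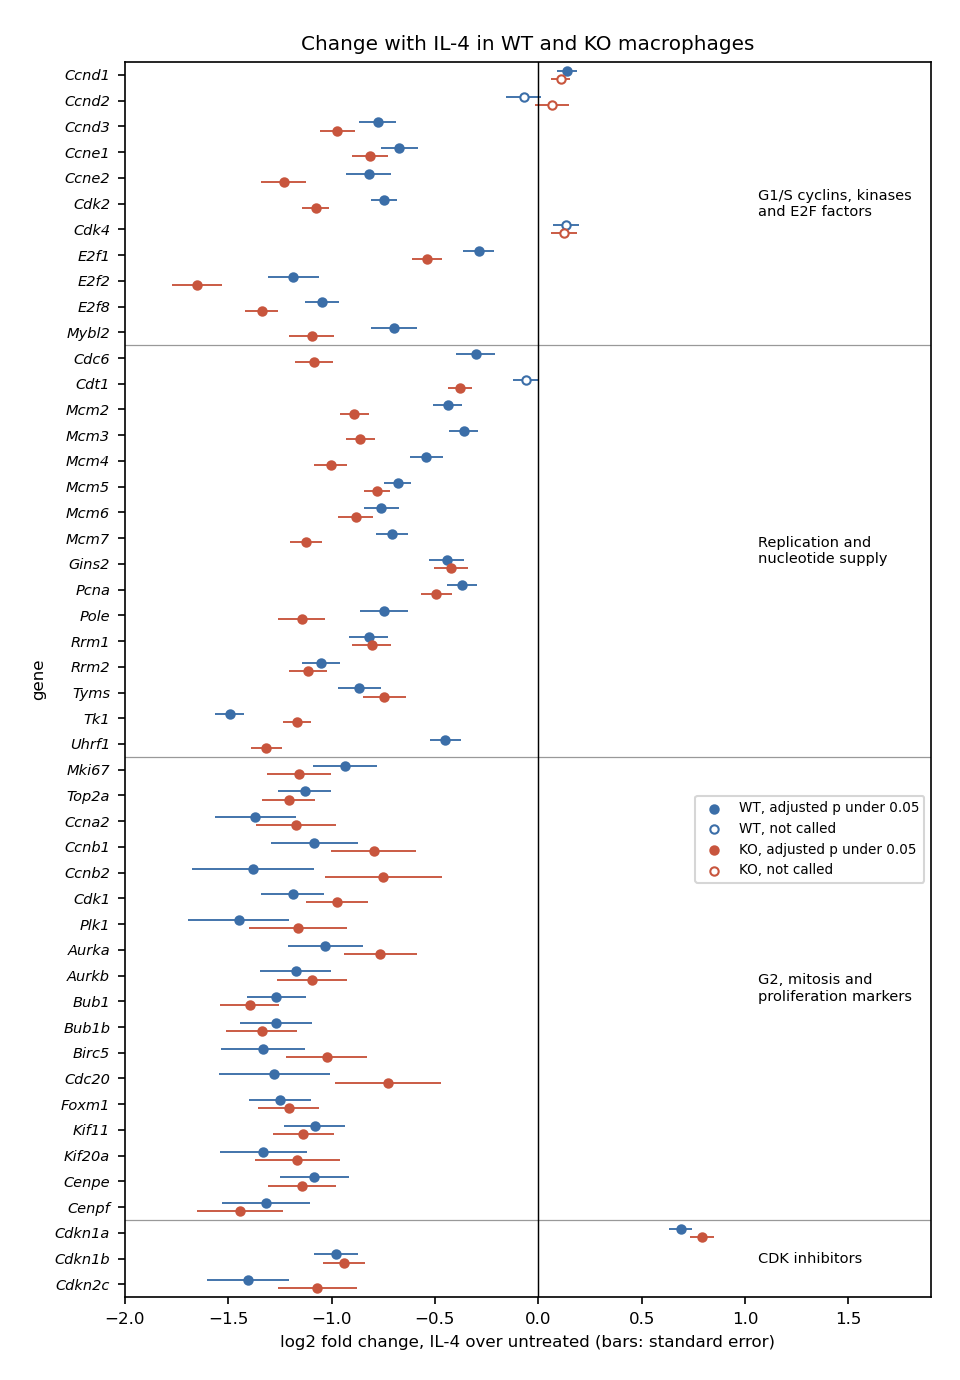
Log2 fold change with IL-4 (horizontal axis, M2 over M0) of each of the 48 genes in WT (blue) and KO (red), with the standard error as a bar. Filled points passed edgeR's test. Points for mitosis lie between -1.45 and -0.73, Cdkn1a lies at 0.69 and 0.79, and for Uhrf1 and Cdc6 the KO points lie far to the left of the WT points.

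Summed over a role group, the mitotic genes went from 1829 ± 281 to 755 ± 217 TPM in WT (mean ± SD, n = 3) and from 1557 ± 8.29 to 711 ± 42.6 TPM in KO. The replication genes went from 3173 ± 320 to 2066 ± 53.5 TPM in WT and from 3019 ± 114 to 1722 ± 60.3 TPM in KO. The G1/S genes, of which Ccnd1 and Cdk4 make the larger share, went only from 1331 ± 55.4 to 1211 ± 40.7 TPM in WT and from 1338 ± 43.9 to 1130 ± 27.9 TPM in KO. In each of these 3 role groups the M2 libraries lay below the M0 libraries of the same genotype.

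**Figure D3:**
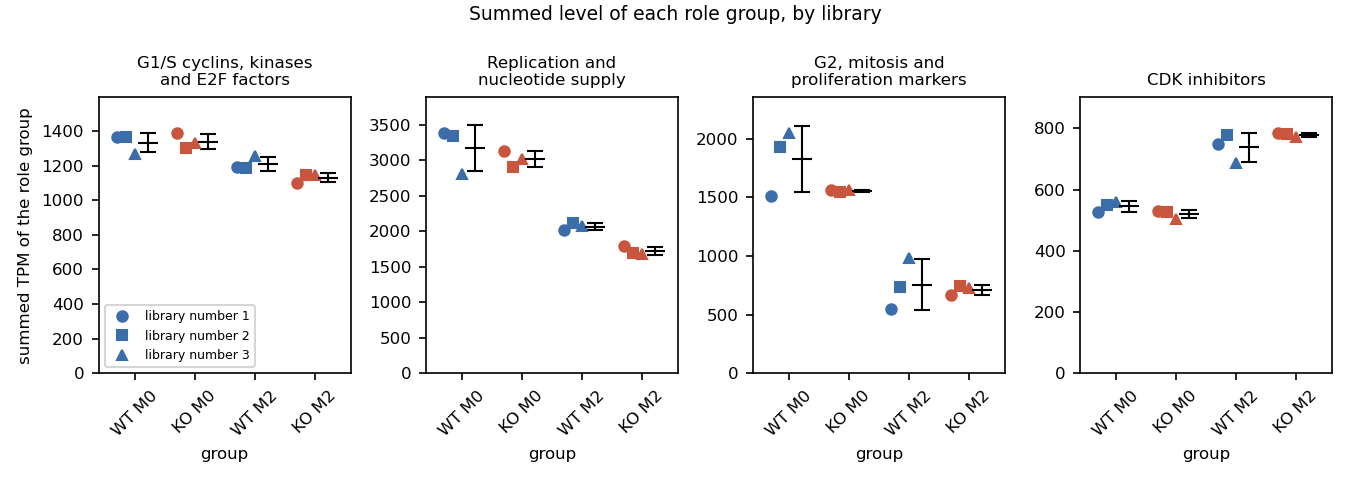
Summed TPM (vertical axis) of each role group in the 12 libraries, with a symbol for each library number and the mean and SD (n = 3) beside it. The M2 groups are lower in the first 3 panels and higher for the CDK inhibitors, and the WT libraries spread far more than the KO libraries in the mitosis panel.

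The level of mitotic genes varied between WT libraries. Library 1 was the lowest of the 3 WT libraries for all 18 mitotic genes in M0 and again in M2, and library 3 was the highest for 16 of them in M0 and for all 18 in M2. Ccnb2, cyclin B2, was at 45.2, 68.1 and 96.0 CPM in WT M0 and at 15.8, 24.0 and 40.7 CPM in WT M2, against 44.7, 53.1 and 55.0 CPM (M0) and 27.6, 31.4 and 31.9 CPM (M2) in KO. The order of the library numbers was the same before and after IL-4, with WT library 1 within the range of the KO libraries in M0 and below all of them in M2. Over the 18 genes, the median coefficient of variation between the 3 libraries was 19.2% in WT M0 and 30.7% in WT M2, but 2.86% (M0) and 3.34% (M2) in KO. For all genes tested it was 7.81%, 6.87%, 4.64% and 6.91% in the same order. Markers of haematopoietic progenitors summed to 1.81, 1.97 and 3.15 CPM in WT M0 and to 3.00, 3.87 and 8.49 CPM in WT M2, in the same order of libraries, and Cd34 led this sum while the other 5 genes stayed under 1 CPM. Monocyte markers summed to 17.5, 23.3 and 31.2 CPM in WT M0 and to 23.4, 31.8 and 31.2 CPM in WT M2, where library 1 was again the lowest. Neutrophil markers summed to 20.2, 24.1 and 9.19 CPM in WT M0 and to 14.0, 11.1 and 5.01 CPM in WT M2, where library 3 was the lowest. Stromal markers were highest in library 1, with 53.1, 29.5 and 38.9 CPM in WT M0 and 59.5, 32.5 and 37.6 CPM in WT M2. Their part in the spread was not tested. Of the 16 replication genes, 12 were lowest in WT library 3 in M0, while in M2 13 were lowest in library 1 and 10 highest in library 3.

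The question of whether IGF2BP2 loss altered these genes was addressed by comparing KO with WT under each treatment. The M0 and M2 comparisons use different libraries, but libraries of the same number varied together, so that they are not independent, and each of them shares libraries with the IL-4 comparisons. In M0, 3 of the 48 genes were higher in KO and 0 were lower (edgeR, with 6 members at an unadjusted p under 0.05, and 1 member lower by DESeq2), against 5.5% higher and 4.27% lower among all genes. At an unadjusted p under 0.05 there were 3252 of all 12846 genes in M0 and 2611 in M2. In M0 the share of members called higher was thus close to that of all genes. The share of members at an unadjusted p under 0.05 was smaller there than that of all genes. The groups did not overlap for 6 members with KO higher and 2 with KO lower, against 16.2% and 14.9% of all genes. In M2, 0 members were higher and 6 were lower in KO (edgeR, with 14 members at an unadjusted p under 0.05, and 0 higher and 9 lower by DESeq2), against 1.21% higher and 1.46% lower among all genes. There the groups did not overlap for 0 members with KO higher and for 11 with KO lower, against 13.1% and 11.7%. All of the genes called by edgeR belong to the 16 replication genes. The gene that DESeq2 called lower in M0 was Tk1, at an edgeR log2 difference of -0.19, and Tk1 and Rrm1 were those with all KO libraries below all WT libraries.

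Uhrf1, which recruits the maintenance DNA methyltransferase to replicated DNA, had the largest difference among the called members in both M0 and M2. In M0 it was at 184, 179 and 160.5 CPM in WT and at 234, 213 and 221 CPM in KO, and in M2 at 124, 133 and 126 CPM in WT and at 100.4, 85.1 and 83.0 CPM in KO. KO was thus above every WT library without IL-4 and below every WT library with it. The log2 difference was 0.35 in M0 (SE 0.07, edgeR adjusted p = 0.0122) and -0.51 in M2 (SE 0.08, edgeR adjusted p = 0.00813). Cdc6, the other loader of the helicase, had 44.2, 44.7 and 41.2 CPM in WT M0 and 53.2, 53.4 and 56.9 CPM in KO M0, but 35.2, 37.7 and 32.6 CPM in WT M2 and 30.5, 22.8 and 24.2 CPM in KO M2. It showed the same reversal, with log2 differences of 0.33 (SE 0.09, edgeR adjusted p = 0.0382) and -0.45 (SE 0.10, edgeR adjusted p = 0.0322). Cdt1 was higher in KO M0 by 0.21 on the log2 scale (SE 0.06, edgeR adjusted p = 0.0378), and in M2 its log2 difference was -0.10 (edgeR adjusted p = 0.353).

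Of the 6 helicase genes, 4 passed the test in M2 and 0 in M0 (edgeR, with 1 in M0, Mcm3, at an unadjusted p under 0.05, and 0 in M0 by DESeq2). Mcm2 had 96.0, 101 and 101 CPM in WT M2 and 80.4, 79.4 and 76.3 CPM in KO M2. Mcm4 had 109, 113 and 116 CPM in WT M2 and 90.2, 80.1 and 85.8 CPM in KO M2. Mcm7 had 94.3, 95.0 and 101 CPM in WT M2 and 77.7, 69.8 and 69.9 CPM in KO M2. For each of these genes all KO libraries were below all WT libraries. The log2 differences were -0.34 for Mcm2, -0.32 for Mcm3, -0.40 for Mcm4 and -0.42 for Mcm7 (SE 0.07 to 0.08, edgeR adjusted p = 0.0313, 0.0373, 0.0258 and 0.0224). For Mcm5 and Mcm6 they were -0.12 and -0.19 and did not pass the test (edgeR adjusted p = 0.331 and 0.237). In M0 the log2 differences of Mcm2, Mcm3, Mcm4 and Mcm7 lay between -0.0042 and 0.18, with edgeR adjusted p from 0.12 to 0.984.

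None of the 11 G1/S genes, the 18 mitotic genes or the 3 CDK inhibitors was called between the genotypes in M0 or in M2 by edgeR over all 12 libraries with the filter on low counts. At an unadjusted p under 0.05 there were 1 and 5 G1/S genes and 0 and 0 of the others in M0 and M2, and DESeq2 called 1 G1/S gene in M2, Ccne2. Other edgeR fits called some of them, namely 1 G1/S gene higher in KO in M0 without WT M0 3, and, lower in KO in M2, 1 without the filter on low counts, 1 without WT M2 1 and 3 without KO M2 1, and 1 mitotic gene lower in M2 without WT M2 1. Among the values that missed the threshold in M2, Ccne2 was at a log2 difference of -0.43 (SE 0.11, edgeR adjusted p = 0.0643), and Ccne1 at -0.30 (SE 0.09, edgeR adjusted p = 0.105) with all KO libraries below all WT libraries. All 18 mitotic genes had a negative log2 difference in M0, between -0.45 and -0.02, with standard errors of up to 0.28 that include the spread between the WT libraries described above.

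The calls between genotypes did not all hold when 1 library was left out. In M0 only Uhrf1 was called in each of the 6 fits that left out 1 of the libraries compared, with log2 differences of 0.30 to 0.39. The calls of Cdc6 were lost in 6 and those of Cdt1 in 5 of these fits, in which their log2 differences were 0.30 to 0.36 and 0.18 to 0.26, and the count of members called was 1 without WT M0 2, KO M0 1, KO M0 2 or KO M0 3. In M2 the count of members called was 0 without WT M2 2, KO M2 2 or KO M2 3 (edgeR, with 11, 11 and 12 members at an unadjusted p under 0.05), 2 without WT M2 3, 5 without WT M2 1 and 10 without KO M2 1. For the 6 genes that had been called in M2, every one of these fits gave a negative log2 difference, between -0.60 and -0.28.

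The difference between the responses was then tested directly, as the IL-4 log2 fold change in KO minus that in WT. By edgeR, 5 of the 48 genes had a more negative response in KO and 0 a more positive one, against 2.13% and 1.11% of all genes, and 15 members and 2290 of all 12846 genes had an unadjusted p under 0.05. DESeq2 called 8 members more negative and 1, Tk1, more positive. The 5 were Uhrf1 (-0.87, SE 0.11, edgeR adjusted p = 0.00279), Cdc6 (-0.78, SE 0.13, edgeR adjusted p = 0.00874), Mcm3 (-0.50, SE 0.10, edgeR adjusted p = 0.0181), Mcm2 (-0.45, SE 0.10, edgeR adjusted p = 0.0282) and Mcm4 (-0.46, SE 0.11, edgeR adjusted p = 0.0447), on the log2 scale. In WT, Uhrf1 fell with IL-4 by 0.45 and Cdc6 by 0.30 on the log2 scale, and in KO by 1.32 and 1.08. The call of this fall of Cdc6 in WT was lost without WT M0 2 and without WT M2 3. For the difference between the responses, Uhrf1 and Cdc6 were called in all 12 fits that left out 1 library. The calls of Mcm2, Mcm3 and Mcm4 were lost in 8, 4 and 9 of them, in which their values were -0.53 to -0.37, -0.57 to -0.44 and -0.54 to -0.38, and the count of members called was 2 without WT M2 2, KO M0 1, KO M0 3 or KO M2 3, 3 without WT M0 2, KO M0 2 or KO M2 2, 8 without WT M0 1 and 9 without KO M2 1.

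**Figure D4:**
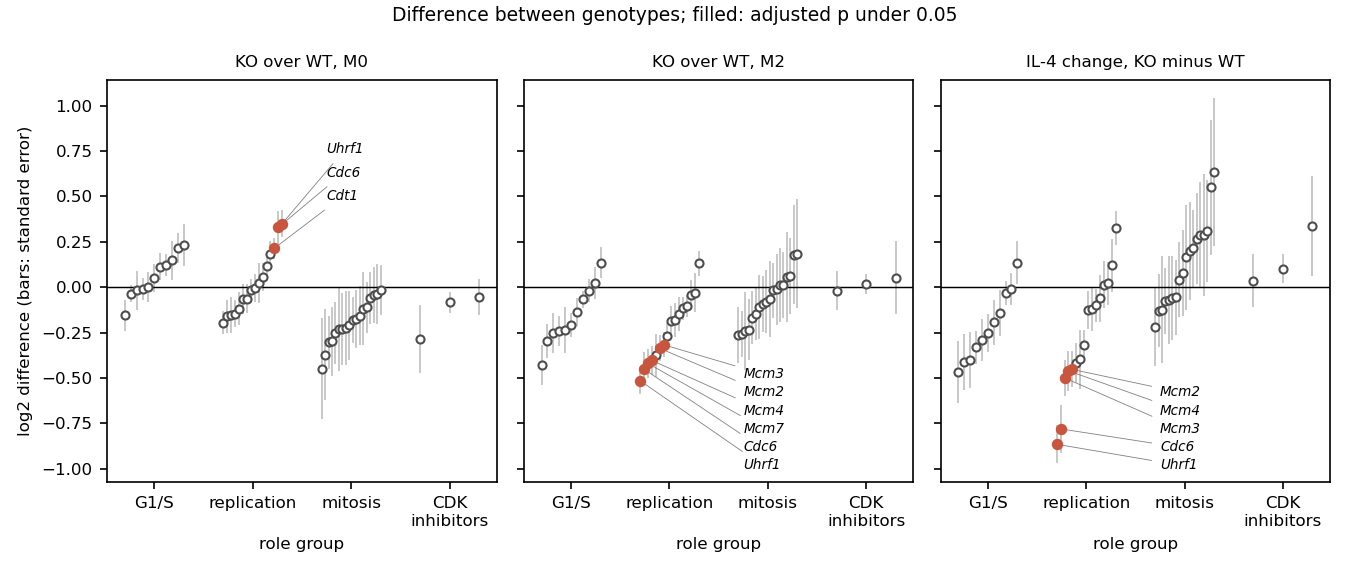
Log2 difference (vertical axis, with the standard error as a bar) of each of the 48 genes, by role group, for KO over WT in M0 (left), KO over WT in M2 (middle) and the IL-4 response in KO minus that in WT (right). Filled and named points passed edgeR's test, and all of these lie in the replication group, above 0 in M0 and below 0 in the other panels.

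Since M0 and M2 libraries of the same number varied together, the test was repeated with these pairs as a block. The number of members called for the difference between the responses then rose from 5 to 16, with 10 more negative and 6 more positive in KO, against 5.01% and 2.79% of all genes. Of the replication genes, Cdt1 (-0.32, edgeR adjusted p = 0.0161 with the block) and Mcm7 (-0.42, 0.0312) joined the 5 above, and of the G1/S genes Cdk2 (-0.33, 0.0246), E2f1 (-0.25, 0.0416) and E2f2 (-0.45, 0.0259). The 6 with a smaller fall in KO were Ccnb2 (0.66, edgeR adjusted p = 0.00372 with the block), Cdc20 (0.55, 0.00527), Tk1 (0.33, 0.0176), Birc5 (0.33, 0.0344), Cdkn2c (0.34, 0.0403) and Ccnb1 (0.31, 0.0414). With the block, the called G1/S genes thus differed in the direction of the helicase genes, and the called mitotic genes in the other.

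The values of the single pairs are given next for Uhrf1 and Ccnb2. These pairs enter the fit with the block and are no further test of it. For Uhrf1 the log2 ratio of M2 to M0 was -0.57, -0.43 and -0.35 in the WT pairs and -1.22, -1.32 and -1.41 in the KO pairs. For Ccnb2 it was -1.52, -1.51 and -1.24 in the WT pairs and -0.69, -0.76 and -0.79 in the KO pairs. The ratios of the genotypes did not overlap for either gene, in opposite directions. In all, the KO ratios lay entirely below the WT ratios for 13 members (6 G1/S and 7 replication genes), against 16% of all genes, and entirely above them for 9 members (7 mitotic genes, Tk1 and Cdkn2c), against 14.7% of all genes. The share of the 9 members was little above that of all genes, and neither count was tested. No mitotic gene was among the 13 and no G1/S gene among the 9.

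**Figure D5:**
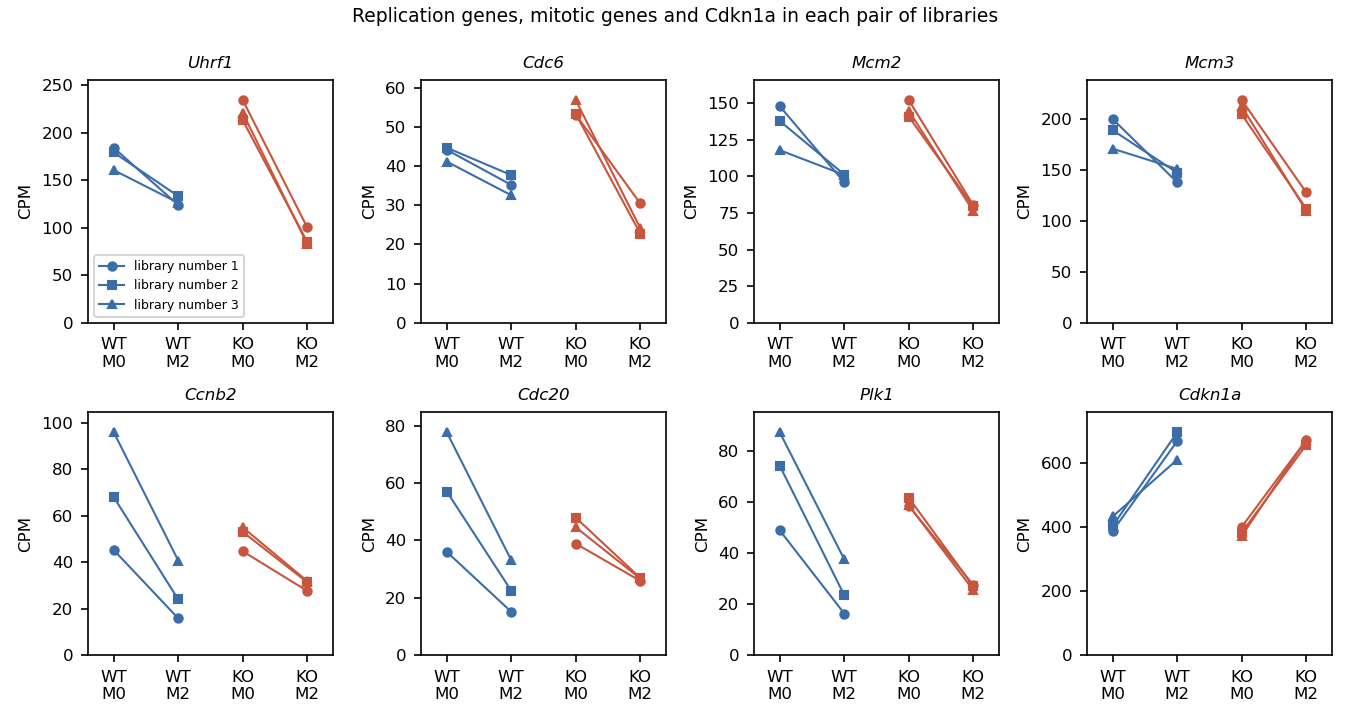
CPM (vertical axis, from 0) of 8 members in M0 and M2, with a line joining the M0 and M2 libraries of the same number in WT (blue) and KO (red). In KO, Uhrf1 and Cdc6 start above and end below the WT libraries, and Mcm2 and Mcm3 end below them. For Ccnb2, Cdc20 and Plk1 the WT lines are spread apart and keep their order, and Cdkn1a rises in all 6 pairs.

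Other cell cycle genes, which are no members, were counted for comparison. Of 32 other S-phase genes, 27 fell with IL-4 in WT and 31 in KO, against 25.1% and 26% of all genes. Clspn, a mediator of the replication checkpoint, fell by 0.87 in WT and 1.41 in KO on the log2 scale, and Prim1, the primase subunit that starts new DNA strands, by 0.68 and 1.05. Lig1, the ligase that joins them, fell by 0.83 in WT and 0.77 in KO, and Atad2 by 0.63 and 1.19. In M0 3 of the 32 were higher in KO (Dtl, Nasp and Ung), and in M2 16 were lower, among them Hells (-0.63), Nasp (-0.36) and Dtl (-0.53), against 5.5% higher in M0 and 1.46% lower in M2 among all genes. For the difference between the responses, 15 of the 32 were more negative in KO, against 2.13% of all genes (19 with the block, against 5.01%), with the smallest p for Dtl (-1.05, edgeR adjusted p = 0.00257), an adaptor of the ubiquitin ligase that degrades CDT1, the histone chaperone gene Nasp (-0.57, edgeR adjusted p = 0.0041) and the chromatin remodeller gene Hells (-0.84, edgeR adjusted p = 0.00755). Of 42 other G2/M genes, 38 fell in WT and 36 in KO, against the same shares of all genes. Cbx5 was lower in KO in M2 (-0.37, edgeR adjusted p = 0.0195). For the difference only Cbx5 was called (-0.53, edgeR adjusted p = 0.0127), while with the block 8 of the 42 were more positive and 2 more negative, against 2.79% and 5.01% of all genes. Psrc1, a spindle gene, rose with IL-4 by a log2 of 1.55 in WT and 1.89 in KO (edgeR adjusted p = 6.52e-08 and 7.8e-09), and Gas2l3 by 0.21 in WT. Those with the smallest p among the falling ones were Hjurp (-0.83), Ncapd2 (-1.22) and Nusap1 (-1.45) in WT, and Cbx5 (-1.03), Hjurp (-0.95) and Tmpo (-0.95) in KO.

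Among 20 other regulators tested, 2 rose and 11 fell in WT and 3 rose and 12 fell in KO, against 24.9% and 25.1% of all genes in WT and 26.8% and 26% in KO. E2f7, a repressor that works with E2F8, fell by 1.29 in WT and 1.45 in KO on the log2 scale, E2f6 by 0.49 and 0.58, and Ccng2 by 0.73 and 0.58. Wee1, the kinase that holds CDK1 inactive, and Cdc25a, a phosphatase that activates CDKs, were lower in KO in M2 (-0.54 and -0.36, edgeR adjusted p = 0.0125 and 0.0303). Rbl1 was lower in KO in M2 as well (-0.36, edgeR adjusted p = 0.0431), and Rb1 was higher in KO in M0 (0.35, edgeR adjusted p = 0.0158). Of the retinoblastoma family, Rbl2, which is linked to the resting state, rose by 0.37 in WT and 0.33 in KO on the log2 scale, while Rbl1 fell by 0.54 and 1.18 and Rb1 by 0.27 and 0.87. The responses of Rbl1 and Rb1 differed between the genotypes by -0.64 and -0.60 (edgeR adjusted p = 0.0132 and 0.0151), and that of Wee1 by -0.53 (edgeR adjusted p = 0.0333). In all, 1 of the 20 regulators was higher in KO in M0, 3 were lower in M2 and 3 had a more negative response, against 5.5%, 1.46% and 2.13% of all genes. Of the other CDK inhibitors, Cdkn2d (p19) fell by 1.35 and 0.96 and Cdkn1c (p57) by 0.84 and 0.76 on the log2 scale in WT and KO. Cdkn2b (p15), at a mean of 1.37 CPM in WT M0, rose in KO (0.83, edgeR adjusted p = 0.019) and was at 0.35 in WT (edgeR adjusted p = 0.32), with a difference between the responses of 0.47 that did not pass the test (edgeR adjusted p = 0.566). Cdkn2a, whose locus encodes p16 and p19ARF, had log2 differences with IL-4 of -0.89 in WT and -0.29 in KO (edgeR adjusted p = 0.106 and 0.6), and with the block it was called lower in WT (edgeR adjusted p = 0.00173). For KO over WT, Cdkn2a was at -0.97 in M0 and -0.38 in M2 (edgeR adjusted p = 0.162 and 0.674).

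The p53 pathway, to which Cdkn1a belongs as a target, was counted with 15 genes, of which Ccng1 is also among the regulators above. With IL-4, 10 rose and 4 fell in WT, and 8 rose and 3 fell in KO, against the 24.9% and 25.1% of all genes that rose and fell in WT and the 26.8% and 26% in KO. Ccng1 rose by 0.85 and 0.79 and Zmat3 by 1.08 and 1.23 on the log2 scale in WT and KO, and the nuclease gene Aen by 0.59 and 0.90. Trp53 itself fell by 0.45 and 0.28, and Mdm2, a target as well as the inhibitor of p53, by 0.63 and 0.70. Pmaip1 (NOXA) fell by 0.91 and 1.25. In M0, Aen, Trp53 and the death receptor gene Fas were lower in KO, by log2 differences of -0.33, -0.18 and -0.76, which is 3 of the 15 genes against 4.27% of all genes. For Aen and Fas, 2 of the 15 against 1.11% of all genes, the response was more positive in KO (0.32 and 1.32, edgeR adjusted p = 0.048 and 0.0279). Of the Myc family and its relatives, Myc rose by 0.66 in WT and 0.94 in KO and its partner Max by 0.33 and 0.42 on the log2 scale. Mxd1, an antagonist of Myc, fell by 0.73 and 0.53. The transcription factor gene Maf rose by 0.32 in WT and fell by 0.28 in KO, a difference of -0.60 (edgeR adjusted p = 0.049), and it was higher in KO in M0 (0.43, edgeR adjusted p = 0.0237).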

How the data were processed

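The authors deposited, for each of the 12 libraries, expected counts (estimated reads per gene, reads with several matches being shared out) and TPM, which are relative to transcript length and library total. Per the methods, reads were checked with FastQC 0.11.2 and processed with the Grape-nf pipeline on GRCm38. The quantifier is not given in the sources used here. Symbols came from a deposited DESeq2 table (the authors used DESeq2 1.40.2), whose own comparisons, like those of 3 other such tables, were not used. Groups follow the sample labels.

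Expected counts were rounded, and after filterByExpr 12846 genes were fitted over all 12 libraries with edgeR 4.0.16 in R 4.3.3 (TMM, quasi-likelihood F test, Benjamini-Hochberg adjustment over all genes, calls below an adjusted p of 0.05). The standard error is the log2 fold change over the square root of F. Scripts were tested on simulated data. Alternatives used DESeq2 1.42.0, limma 3.58.1 on log2 TPM, other filters and scaling, thinning, a replicate block, and leaving out each library. Deviations from the group mean of M0 and M2 libraries of the same number correlated by 0.103 to 0.364 over all genes, which is where the pairing comes from; across genotypes the values were -0.068 to 0.04.

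The members and gene lists were chosen with earlier results of these data known. All members, and of each other list the called genes with the smallest p (up to 3 per direction and comparison) and any CDK inhibitor or retinoblastoma gene, were to be named. The result for 1 other gene, and the counts of the list that holds it, are not reported here.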

Additional observations from a re-analysis of the deposited data

Results flagged for a closer look

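For 5 of the 48 genes, WT and KO responded differently to IL-4 by the edgeR test of the difference itself. The difference of the log2 fold change, KO minus WT, was -0.87 for Uhrf1 (edgeR adjusted p = 0.00279), -0.78 for Cdc6 (edgeR adjusted p = 0.00874), -0.50 for Mcm3 (edgeR adjusted p = 0.0181), -0.45 for Mcm2 (edgeR adjusted p = 0.0282) and -0.46 for Mcm4 (edgeR adjusted p = 0.0447). For each of these genes the log2 ratio of M2 to M0 was lower in all 3 KO pairs than in any WT pair. With 1 of the 12 libraries left out, the calls of Mcm2, Mcm3 and Mcm4 were lost in 8, 4 and 9 fits and those of Uhrf1 and Cdc6 in 0, and with limma on log2 TPM those of Mcm2 and Mcm4 were lost at both pseudocounts (limma adjusted p from 0.101 to 0.119).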

How the results depend on the processing

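The counts of members called with IL-4 stayed within 43 to 46 in WT and 43 to 47 in KO under every alternative. For KO versus WT in M0 the count of 3 became 1 with limma on log2(TPM + 0.1) and 1 to 3 with 1 library left out. For KO versus WT in M2 the count of 6 became 1 with limma on either log2(TPM + 1) or log2(TPM + 0.1) and 0 to 10 with 1 library left out. For the difference between the responses the count of 5 became 9 with DESeq2 (8 more negative and 1 more positive in KO), 3 with limma at either pseudocount, 16 with the replicate block and 2 to 9 with 1 library left out. In the other comparisons the block gave 46, 47, 3 and 7 members, and no other count moved by more than 1.5 times. The cause of these shifts was not tested. Of the 931 values for called genes without a library left out, 906 stayed called in the same direction and 0 turned. Of the 654 values with 1 library left out, 580 stayed called in the same direction, 74 lost the call and 0 turned. Ccnd2 with IL-4 in KO turned to -0.022 and -0.024 with limma at these pseudocounts, and in WT ranged from -0.14 to 0.011 with 1 library left out. Of the 100 uncalled differences under 0.25 in size, 15 changed sign under another setting and 54 with 1 library left out. With all libraries thinned to the smallest, 45, 45, 3, 6 and 5 members were called. With the library number as a block, which did not pair the genotypes, Rbl1 in M2 and Nasp in M0 were no longer called (edgeR adjusted p = 0.058 and 0.0555), and 2 of the 32 other S-phase genes were higher in M0 and 14 lower in M2.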

Other observations

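The TPM and the counts of Cenpf, a kinetochore gene, did not give the same comparison between genotypes. Its TPM in M0 were 19.2, 27.6 and 27.4 for the WT libraries and 13.9, 20.3 and 15.1 for the KO libraries, while its CPM were 65.1, 86.6 and 92.4 for WT and 71.3, 79.0 and 74.4 for KO. Its TPM in M2 were 4.27, 5.14 and 7.82 for WT and 6.46, 7.12 and 5.61 for KO. Its CPM in M2 were 22.2, 29.4 and 46.5 for WT and 23.0, 30.8 and 28.5 for KO. The mean was lower in KO by both measures in M0, and only by CPM in M2. The length that the quantification assigned to the gene in each library enters the TPM and not the counts, and its part in this was not tested.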
